A study of Mus musculus with 2 samples.

Results

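The genes described here make, move and use the carbon units carried by folate, build serine and other amino acids, take amino acids up, or belong to the stress response led by the transcription factor ATF4. There are 38 of them by name. A gene counted as measured when a probe set of the array carried its symbol and no other. On that rule 37 of the 38 were measured, each by 1 probe set, among 19938 genes measured in all, and *Pycr1* was not. The list was chosen by the difference of *Aldh1l2* between these same arrays, so that difference is given as a description and supports nothing. The other genes were added for their place in the same pathways, with earlier results of these data known. Counts and shares of members are therefore descriptions too. The question was whether genes of serine, folate and amino acid supply shared that difference.

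Whole pancreata of mouse embryos were taken at E15.5, during the secondary transition, when endocrine cells expand. The groups were wild-type embryos (WT) and *Mafk* transgenic embryos (*Mafk*-Tg), both on an ICR background. *Mafk*-Tg carried a FLAG-tagged mouse *Mafk* cDNA under the rat insulin I promoter, which is active in β-cells, while the RNA came from every cell of the organ. The design gives 3 embryos per genotype, and the paper refers to its microarray samples as technical replicates. Only 1 array per genotype was analysed, and whether RNA was pooled is not stated in the sources used here. There is therefore no spread between replicates, no SD and no test. Values are log2 array values, and a difference is the *Mafk*-Tg value minus the WT value. The reference line was 1.2-fold, the study's own threshold, which is 0.26 on the log2 scale.

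*Mafk* itself had 6.75 in WT and was higher by 0.25 in *Mafk*-Tg, under 1.2-fold. The 2 arrays also differed in *Xist*, with 4.40 in WT and 11.30 in *Mafk*-Tg, and in the Y-linked *Eif2s3y*, with 8.29 and 2.61. Sex and genotype therefore cannot be told apart in these arrays for any gene, autosomal members included. *Slc7a3* is the X-linked member. Over all 19938 genes, 7.96% passed 1.2-fold upward in *Mafk*-Tg and 10.5% passed it downward, and the median difference was -0.01.

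Cells carry activated carbon units on tetrahydrofolate, and serine is their main donor. Serine is made from glycolytic carbon by PHGDH, PSAT1 and PSPH, is cleaved to glycine by the hydroxymethyltransferases SHMT1 and SHMT2, and the folate-bound unit is then oxidised or reduced by the MTHFD enzymes, in parallel pathways of the cytosol and the mitochondrion. ALDH1L1 in the cytosol and ALDH1L2 in the mitochondrion oxidise 10-formyltetrahydrofolate to carbon dioxide and make NADPH. ATF4 is translated more when eIF2α is phosphorylated, during amino acid shortage or stress of the endoplasmic reticulum, and it binds C/EBP-ATF composite elements of genes for amino acid synthesis, transport and tRNA charging. Secretory cells of the pancreas synthesise much protein and use these supply pathways heavily.

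ATF4 composite elements lie close to the start of several members, and they are shown because part of the list was drawn from known targets of this factor. RefSeq promoter windows of GRCm38.p6, from 250 bases before to 50 bases after a start, were found for 33 of the 38 genes. *Aldh1l2*, *Cth*, *Slc1a5*, *Slc7a3* and *Slc7a5* had none. The letters TGATGNAA were searched on both strands, and stretches of 30 bases follow, written on the strand of the gene, with the match in capitals.
*Asns*, chr6:7693214-7693243, minus strand: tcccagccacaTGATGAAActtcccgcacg
*Chac1*, chr2:119351038-119351067, plus strand: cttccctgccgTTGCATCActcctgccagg
*Trib3*, chr2:152344028-152344057, minus strand: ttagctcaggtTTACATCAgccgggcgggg
*Nupr1*, chr7:126625562-126625591, minus strand: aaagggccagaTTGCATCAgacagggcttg
*Slc7a11*, chr3:50443661-50443690, minus strand: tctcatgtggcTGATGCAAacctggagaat
*Slc7a11*, chr3:50443642-50443671, minus strand: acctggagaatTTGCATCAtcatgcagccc

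These letters were present in the windows of 9 of the 33 genes, or 27.3%, against 4.51% of the 27025 genes that have a window. Over single windows the share was 3.97% of 32851. The other holders were *Slc1a4*, *Pycr1*, *Vldlr* and *Got1*. The list was put together partly from known ATF4 targets, so the share describes the choice of genes. A match is a description of the letters and not a shown binding site.

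The second set of letters concerns the transgene. Small MAF proteins such as MAFK bind MAF recognition elements as homodimers, and antioxidant response elements as partners of CNC factors such as NRF2. The core TGACNNNGC and the half-site TGCTGA, which can overlap, were searched on both strands. The 250 bases before the start of *Phgdh*, the member with the next largest difference after *Aldh1l2*, held one of each in overlap. They are shown with those letters in capitals, followed by 30 bases around the core at the start of *Cebpb*, the member with the lowest difference.
*Phgdh*, chr3:98339970-98340219, minus strand: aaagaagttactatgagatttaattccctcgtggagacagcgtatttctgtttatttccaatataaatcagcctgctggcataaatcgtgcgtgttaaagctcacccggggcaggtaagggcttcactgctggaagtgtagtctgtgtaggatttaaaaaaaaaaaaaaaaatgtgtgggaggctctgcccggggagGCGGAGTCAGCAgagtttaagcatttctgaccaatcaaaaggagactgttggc
*Cebpb*, chr2:167688898-167688927, plus strand: ggccccagcgTGACGCAGCccgttgccagg

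The core was present in the windows of 8 of the 33 genes, or 24.2%, against 13.99% of all genes that have a window. The half-site was present in 12, or 36.4%, against 21.7% of those genes. Over single windows the shares were 12.4% and 19.5%. The members were chosen by pathway, and the genes beside them were not matched for base composition or expression level. Whether the members hold more of these letters than comparable genes was therefore not tested, and a match is not a shown binding site.

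*Aldh1l2* was higher in *Mafk*-Tg, and few of the other supply genes passed 1.2-fold. Of the 37 measured members, 5 were at least 1.2-fold higher, namely *Aldh1l2*, *Phgdh*, *Aldh1l1*, *Cbs* and *Ddit4*. This is 13.5% of them, beside 7.96% of all genes, and the count includes *Aldh1l2*, which chose the list. Without *Aldh1l2* and its paralog *Aldh1l1*, 3 of 35 were higher, or 8.57%, beside the same 7.96% of all genes. *Aldh1l1* did not choose the list and was itself higher, so leaving it out lowers the share. *Cebpb* was at least 1.2-fold lower, which is 2.70% of the members, beside 10.5% of all genes. The mean of the arrays reached the median level over all probe sets for 33 of the 37 members, which hold the same 5 higher and 1 lower genes, beside 5.58% and 5.87% of all genes of that level. The other 31 members lay within 1.2-fold, and 19 of the 37 lay within 0.1 of 0 on the log2 scale. Among genes whose mean lay within 0.5 on the log2 scale of the member's own, 0.0857% had a difference at least as high as that of *Aldh1l2*, 0.232% as that of *Phgdh*, 1.34% as that of *Cbs*, 1.85% as that of *Aldh1l1* and 4.29% as that of *Ddit4*, the member itself included. By sign alone, 25 of the 37 members lay above 0, 10 below it and 2 at 0, while of all 19938 genes 8960 lay above 0 and 10291 below it. The median difference of the members was 0.05, and 0.02 without the pair of 10-formyltetrahydrofolate dehydrogenases.

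**Figure D1:**
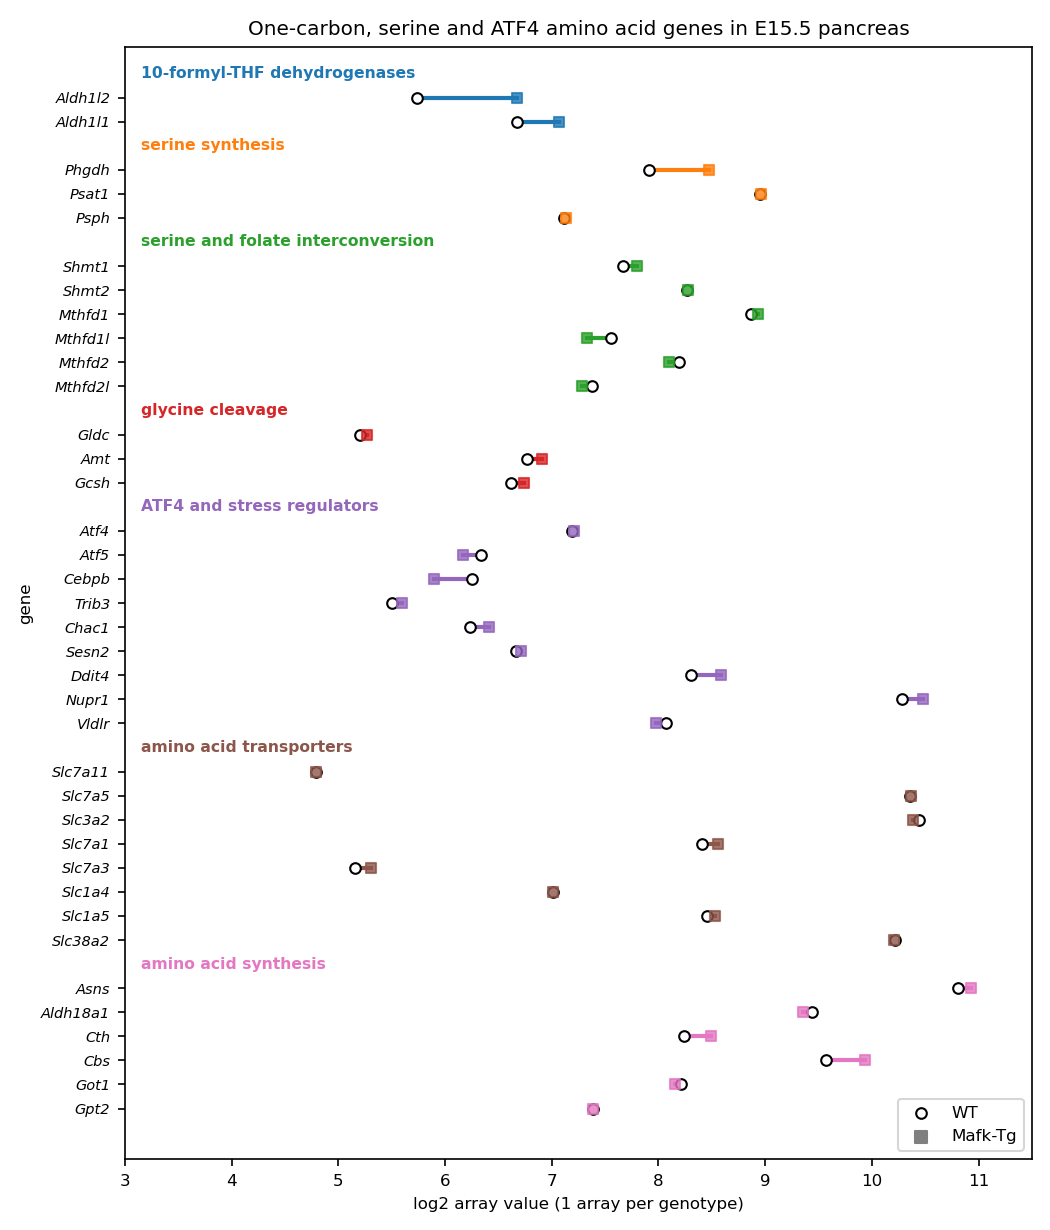
Log2 array values of the 37 measured members in WT (open circles) and *Mafk*-Tg (filled squares), from 1 array each, with a line between the paired points and colours by role. *Aldh1l2* goes from 5.74 to 6.67, while the squares of *Psat1*, *Shmt2*, *Atf4* and the amino acid transporters lie on or close to their circles.

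Both genes of 10-formyltetrahydrofolate dehydrogenase were higher in *Mafk*-Tg. *Aldh1l2* (probe set 10371332), the mitochondrial enzyme gene, had 5.74 in WT and 6.67 in *Mafk*-Tg, which is 0.94 higher, or a ratio of 1.91. Among the 19938 genes, 14 had a larger positive difference. *Aldh1l1* (probe set 10540034), the cytosolic enzyme gene, had 6.68 in WT against 7.07 in *Mafk*-Tg, a difference of 0.39 or a ratio of 1.31. Its difference was exceeded by 553 genes. *Aldh1l2* was also the one member past 1.5-fold, where 0.697% of all genes were higher and 1.27% were lower.

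In serine synthesis the first enzyme gene stood apart from the other two. *Phgdh* (probe set 10500529), for the dehydrogenase that starts the pathway, went from 7.91 in WT to 8.47 in *Mafk*-Tg, a difference of 0.56 or a ratio of 1.47. It was exceeded by 166 genes. *Psat1*, for the aminotransferase of the next step, had 8.95 in WT against 8.96 in *Mafk*-Tg, a difference of 0.01. *Psph*, for the phosphatase of the last step, had 7.11 and 7.13, a difference of 0.02. The 3 steps of the pathway therefore had 1 gene past 1.2-fold and a pair that were nearly equal in both arrays.

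None of the 6 genes that interconvert serine, glycine and folate-bound carbon was past 1.2-fold in either direction, and their median difference was -0.04. *Shmt2*, for the mitochondrial hydroxymethyltransferase, had 8.27 in WT against 8.28 in *Mafk*-Tg, a difference of 0.01. *Mthfd2*, for the mitochondrial dehydrogenase and cyclohydrolase, had 8.19 and 8.10, a difference of -0.09. *Mthfd2l* and *Mthfd1l*, for other mitochondrial folate enzymes, had differences of -0.10 and -0.23. On the cytosolic side *Shmt1* had 0.13 and *Mthfd1*, for a trifunctional enzyme, had 0.07. The 4 mitochondrial members of this role thus lay between -0.23 and 0.01, while *Aldh1l2* of the same compartment was at 0.94.

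The glycine cleavage system, which feeds carbon from glycine into mitochondrial folate, also lay within 1.2-fold. *Gldc*, for its decarboxylase, had a difference of 0.06, *Amt*, for its aminomethyltransferase, 0.14, and *Gcsh*, for its lipoyl carrier protein, 0.12. All 3 were above 0, with a median of 0.12. Over the 8 mitochondrial folate and glycine members together, 1, *Aldh1l2*, was past 1.2-fold, and the median was 0.03.

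**Figure D2:**
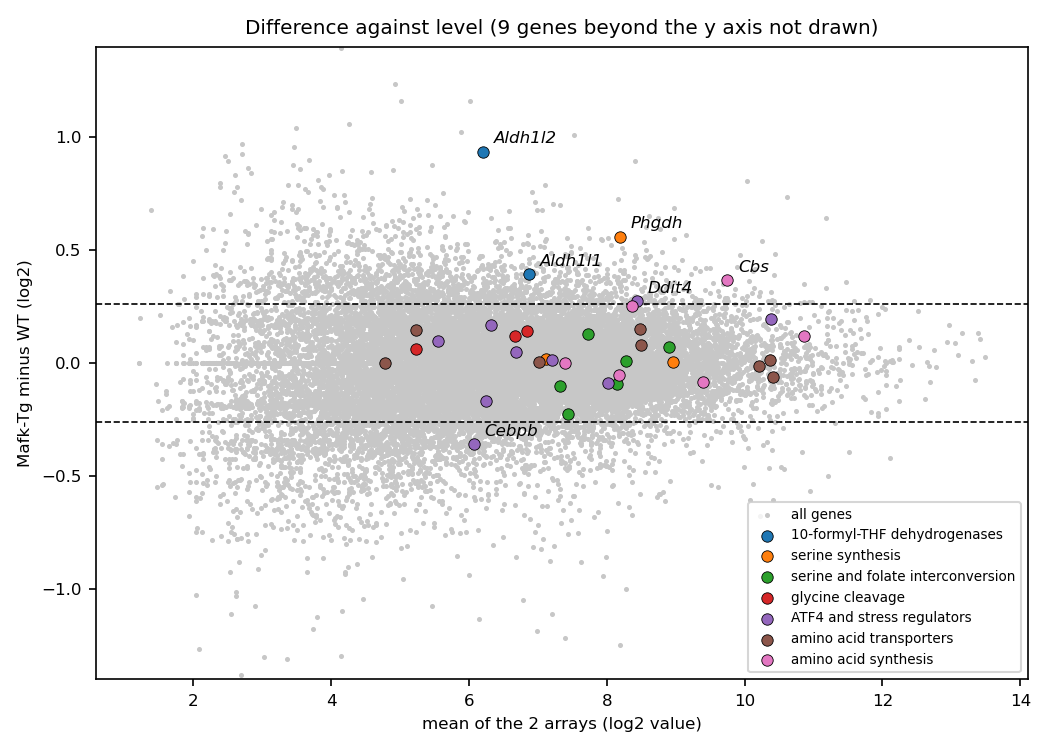
Difference of each gene, *Mafk*-Tg minus WT on the log2 scale, against its mean log2 value over the 2 arrays, for 19938 genes (grey, 9 beyond the axis) and the 37 members (coloured by role), with dashed lines at 1.2-fold. *Aldh1l2* at 0.94, *Phgdh* at 0.56 and *Cbs* at 0.37 lie along the upper edge of the genes of their level, and *Cebpb* at -0.36 is the one member under the lower line.

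*Atf4* and most of its regulators and effectors lay within 1.2-fold. *Atf4* (probe set 10425364) had 7.19 in WT against 7.21 in *Mafk*-Tg, a difference of 0.01. ATF4 is controlled largely at translation, so its RNA does not report its protein. Among the regulators and effectors, *Ddit4*, which encodes an inhibitor of mTORC1 signalling, had 8.31 in WT against 8.58 in *Mafk*-Tg, a difference of 0.28 or a ratio of 1.21, just past the line. *Cebpb*, for a C/EBP factor that can pair with ATF4, had 6.26 and 5.90, a difference of -0.36 or a ratio of 0.779. *Nupr1*, for a small stress-induced nuclear protein abundant in exocrine pancreas, had 0.20. *Chac1*, for a glutathione-degrading enzyme, had 0.17, *Trib3*, for a pseudokinase, 0.10, and *Sesn2*, for a leucine sensor, 0.05. *Vldlr*, for a lipoprotein receptor, had -0.09, and *Atf5*, for a related bZIP factor, had -0.17. Of these 9 genes, 1 was past the line in each direction, and their median was 0.05.

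The 8 amino acid transporter genes lay in a narrow range, from -0.06 to 0.15, with a median of 0.01. *Slc7a11*, for the cystine importer, had 4.79 in both arrays, below the median level of all probe sets. *Slc7a5* and *Slc3a2*, for the light and heavy chain of the leucine carrier LAT1, had differences of 0.01 and -0.06. The neutral amino acid carrier genes *Slc1a4*, *Slc1a5* and *Slc38a2* had 0.01, 0.08 and -0.01. The genes of cationic carriers, *Slc7a1* and the X-linked *Slc7a3*, had 0.15 and 0.15. No transporter was past 1.2-fold.

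Of the 6 measured genes of amino acid synthesis and sulfur transfer, *Cbs* was past the line. *Cbs* (probe set 10449712), for cystathionine β-synthase, which joins homocysteine to serine, had 9.57 in WT against 9.93 in *Mafk*-Tg, a difference of 0.37 or a ratio of 1.29. *Cth*, for the next enzyme, which releases cysteine, had 8.24 and 8.49, a difference of 0.25 and a ratio of 1.19, just short of the line. *Cth* and *Ddit4* were the members nearest to the line below and above it. *Asns* (probe set 10543067), for asparagine synthetase and a classical ATF4 target, had 10.81 and 10.93, a difference of 0.12. *Got1* and *Gpt2*, for aminotransferases of aspartate and alanine, had -0.05 and 0.00, and *Aldh18a1*, for the first enzyme of proline synthesis, had -0.09.

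Genes with an ATF4 composite element were all among those within 1.2-fold. Of all genes, 7.96% were higher and 10.5% lower, so 0 past the line among 8 genes does not set the holders apart. The 8 measured holders had differences from -0.09 for *Vldlr* to 0.20 for *Nupr1*, with a median of 0.05. Among the 24 measured genes whose windows lacked these letters, 4 were higher (*Phgdh*, *Aldh1l1*, *Cbs* and *Ddit4*), 1 was lower (*Cebpb*), and the median was 0.02. No window of *Aldh1l2* was analysed, so whether it has such letters near its start is not given here.

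**Figure D3:**
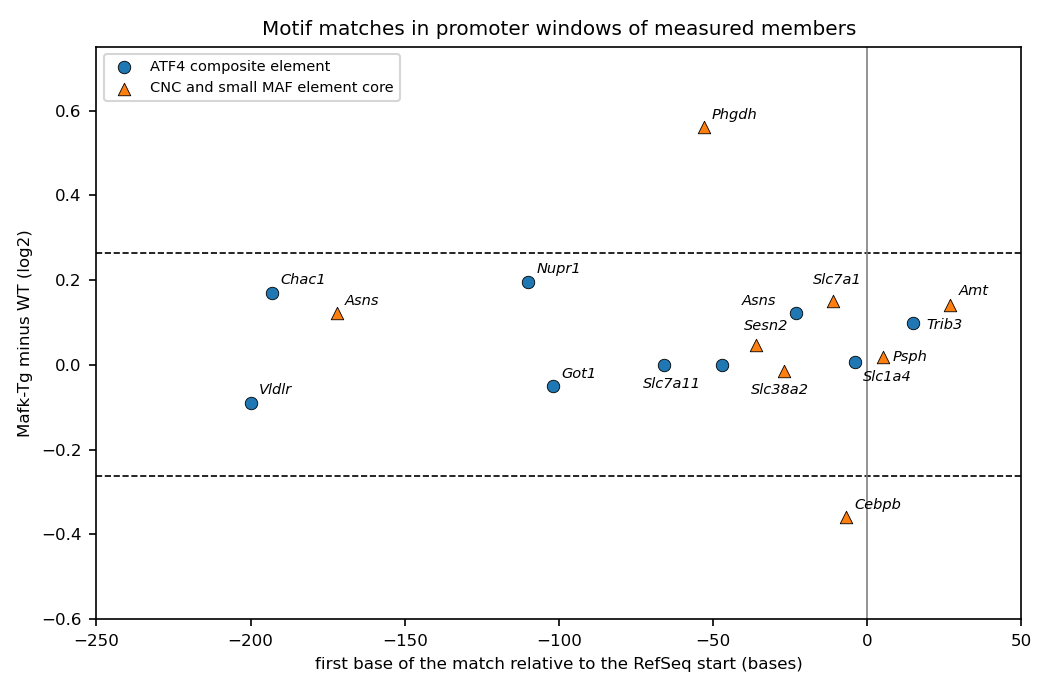
Difference, *Mafk*-Tg minus WT on the log2 scale, of measured members whose promoter window holds an ATF4 composite element (circles) or the CNC and small MAF core (triangles), against the position of the first matching base relative to the RefSeq start, with dashed lines at 1.2-fold. *Slc7a11* has 2 circles and *Asns* has both kinds of match, all circles lie within 1.2-fold, and the triangles of *Phgdh* and *Cebpb* lie outside in opposite directions.

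Members with the CNC and small MAF core lay on both sides of 0. *Phgdh*, with the core beginning 53 bases before its start, had 0.56, and *Cebpb*, with the core beginning 7 bases before its start, had -0.36. The other 6 holders, *Sesn2*, *Psph*, *Slc7a1*, *Asns*, *Amt* and *Slc38a2*, lay within 1.2-fold, from -0.01 to 0.15. Of the 12 holders of the half-site, *Phgdh* was the one past 1.2-fold. Among the 24 measured genes without the core, 3 were higher (*Aldh1l1*, *Cbs* and *Ddit4*) and 0 lower. Among the 20 without the half-site, 3 were higher and 1 was lower. Of all genes, 7.96% were higher and 10.5% lower, so these small counts do not tie the letters to the differences. The median was 0.08 over the 8 holders of the core and 0.01 over the 24 measured genes without it, and 0.08 over the 12 holders of the half-site and 0.01 over the 20 without it.

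Beyond the members, other genes tied to these pathways were given as further lists, also chosen with earlier results of these data known. Their counts past the line stand beside 7.96% of all genes higher and 10.5% lower. With 8 to 19 genes measured per list, a few past the line do not set a list apart. Folate uptake and retention had 1 of 8 measured genes higher and 0 lower, with a median of 0.02. That gene was *Ftcd*, for a histidine-degrading folate enzyme, at 0.35, with a mean below the median level. *Ggh*, for the hydrolase that trims folate chains, had 0.26, just under the line, and *Slc46a1*, for the proton-coupled folate transporter, had -0.24. *Slc25a32*, for the carrier of folate into mitochondria, had 0.09, and *Slc19a1*, for the reduced folate carrier, had 0.05. Purine and thymidylate synthesis, which takes carbon from 10-formyltetrahydrofolate and methylenetetrahydrofolate, had 0 of 8 past the line in either direction and a median of -0.01, with *Pfas* at -0.25 and *Ppat*, for the first committed step, at 0.13.

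The list of methionine cycle and methyl donor genes had the highest median of the 7 further lists, 0.16. Of its 12 measured genes, 2 were higher and 0 lower, and by sign 7 lay above 0 and 5 below. The cycle genes *Mat2a* and *Ahcy* were not measured. The 2 are 16.7% of the list, beside 7.96% of all genes. *Gnmt*, for glycine N-methyltransferase, which consumes S-adenosylmethionine and is inhibited by bound folate, had 6.97 in WT against 7.67 in *Mafk*-Tg, a difference of 0.70. *Mat1a*, for a synthetase of S-adenosylmethionine, had 8.19 and 8.61, a difference of 0.43. *Gamt*, for a methyltransferase of creatine synthesis, had 0.22 and *Mat2b* 0.20. *Mtr*, for methionine synthase, which joins the methionine cycle to folate, had -0.04.

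The readouts of amino acid shortage and of the eIF2 pathway showed no common direction. Of 18 measured cytosolic aminoacyl-tRNA synthetase genes, many of them ATF4 targets, 0 were past the line, with a median of 0.02 and a range from -0.14 for *Farsa* to 0.20 for *Kars*. *Hars* had 0.19 and *Wars* 0.14. Among 13 genes of the eIF2 kinases and the stress response, 1 was higher and 1 lower, with a median of 0.13. Each is 7.69% of the list, beside 7.96% of all genes higher and 10.5% lower. The lower gene was *Ppp1r15a*, for the stress-induced eIF2α phosphatase subunit GADD34, with 6.68 in WT against 6.10 in *Mafk*-Tg, a difference of -0.58. The higher gene was *Fgf21*, at 0.34 but below the median level. *Herpud1*, for a factor of endoplasmic reticulum degradation, had 0.26, under the line, *Eif2ak3*, for the kinase PERK, had 0.19, and *Atf3* had -0.18.

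Other amino acid transporters had 2 of 19 higher and 2 lower, with a median of -0.06. That is 10.5% each way, beside 7.96% of all genes higher and 10.5% lower. *Slc43a1*, for a large neutral amino acid carrier, had 8.09 in WT against 7.56 in *Mafk*-Tg, a difference of -0.53. *Slc38a3*, for a glutamine carrier, had 0.24, *Slc16a10* -0.20 and *Slc38a1* -0.19. The other 3 past the line, *Slc1a1* at 0.38, *Slc6a14* at 0.27 and *Slc1a2* at -0.28, lay below the median level. Other amino acid enzymes had 2 of 17 higher and 0 lower, with a median of 0.00. They were *Bcat1*, for the cytosolic branched-chain aminotransferase, at 0.30, and *Arg1*, at 0.35 and below the median level. *Gclm*, for the modifier subunit of glutathione synthesis, had -0.25, *Glul*, for glutamine synthetase, -0.23, and *Prodh*, for proline dehydrogenase, -0.17.

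**Figure D4:**
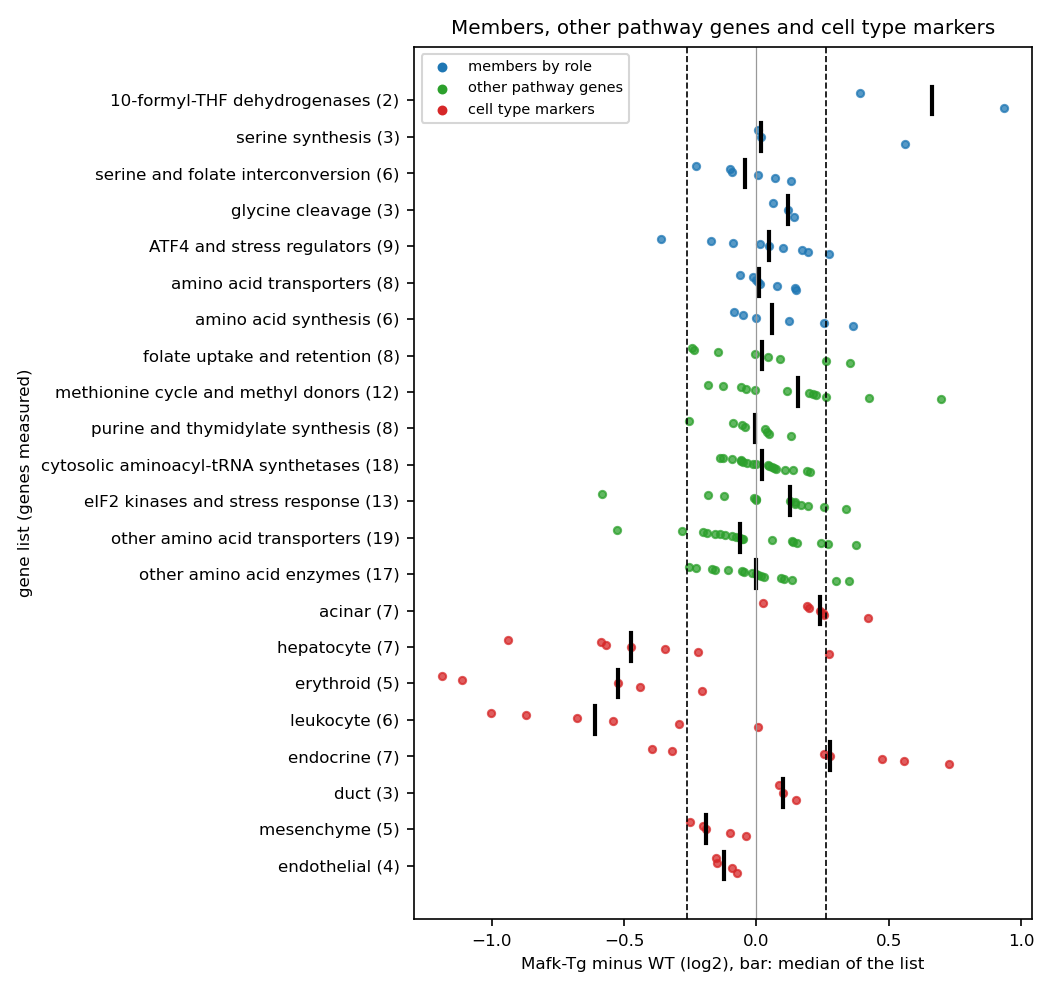
Difference, *Mafk*-Tg minus WT on the log2 scale, of each measured gene (points) and the median (black bars) for the 7 roles of the members (blue), 7 further pathway lists (green) and 8 cell type marker lists (red), with dashed lines at 1.2-fold. Apart from the 10-formyltetrahydrofolate dehydrogenases at a median of 0.66, the medians of the roles lie between -0.04 and 0.12, while blood cell and hepatocyte markers have medians from -0.61 to -0.47.

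Markers of several cell types differed between the same arrays. Acinar markers, among them the digestive enzyme genes *Cpa1* and *Cel* at 0.03 and 0.25, had a median of 0.24, with 7 of 7 above 0 and 1 past 1.2-fold, and their log2 values ran from 8.49 to 13.48 in WT and from 8.73 to 13.51 in *Mafk*-Tg. Of the 37 members, 6 had a difference above that acinar median, the 5 higher ones and *Cth*. Hepatocyte markers were lower, 5 of 7 past 1.2-fold with a median of -0.47. *Alb* had -0.57, while *Ttr*, which islets also express, had 0.27 and was past the line. Erythroid markers had a median of -0.52 with 4 of 5 lower, among them *Rhag* at -1.11, while *Alas2* had -0.20. Leukocyte markers had a median of -0.61 with 5 of 6 lower, and *Srgn* had -0.87 and *Lyz2* -0.68. Endocrine markers were mixed, with *Gcg* at 0.28 and *Chga* at -0.32, 4 of 7 higher, 2 lower and a median of 0.28. Duct, mesenchyme and endothelial markers had medians of 0.10, -0.19 and -0.12, with *Krt8* and *Sox9* at 0.10 and 0.15, *Vim* and *Col1a1* at -0.20 and -0.10, *Cdh5* and *Pecam1* at -0.15 and -0.09, and none past the line. The part of these cell types in the values of *Aldh1l2*, *Phgdh*, *Aldh1l1*, *Cbs* and *Ddit4* was not tested, and in whole pancreas more cells of a type and more RNA per cell cannot be told apart.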

How the data were processed

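RNA of whole E15.5 pancreas, from WT and *Mafk*-Tg embryos, was measured on MoGene arrays of Affymetrix, 1 for each genotype. The authors normalized the arrays and summarized probe sets in Affymetrix Expression Console, named in the paper and in the submitters' processing notes, whose version and algorithm the sources used here do not give. The deposited values lie on a log2 scale, judged from their range of 0.51 to 14.01, with medians of 6.01 and 6.01. No further scaling was applied. Precision is limited by having 1 array for each genotype.

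Of 35556 probe sets, 21789 carried 1 symbol in the platform table and were averaged per gene, giving 19938 genes; the 1621 with several symbols and 12146 without one were not used. Counts used 1.2-fold. No test was run. The members and lists were chosen with earlier results of these data known. Named genes were all members, up to 4 genes of each further list with the largest differences, provided that their mean reached the median over probe sets, and the 2 highest markers of each cell type; further list genes below that level, *Mtr*, *Ddit3*, *Stc2*, *Gpt* and the sex-linked genes were singled out after their values were seen. Promoter windows came from RefSeq (GRCm38.p6). Alternatives were equal medians, quantile normalization, a loess with a span of 0.3, the brightest probe set, genes below the median level left out, and cutoffs of 1.1-fold and 1.5-fold. An alternative value was counted as equal within 0.1 on the log2 scale, and a count within 1.5 times. Steps were tested on simulated data with planted differences larger than that of any member and a smaller spread than over all genes here. Calls near the line were therefore not tested. The tools were statsmodels 0.14.6, pandas 2.3.3 and numpy 2.4.6 under Python 3.11.15, and figures were drawn with matplotlib 3.10.9.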

Additional observations from a re-analysis of the deposited data

How the results depend on the processing

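No paired analysis was possible because each genotype has 1 array and the arrays carry no replicate number. Leaving out a replicate was not possible for the same reason. Of the 37 members, the same 5 were higher and *Cebpb* was lower under equal medians, quantile normalization, loess and the brightest probe set, and among the 33 members at or above the median level. There 5.58% of all genes were higher and 5.87% were lower. *Aldh1l2* ranged from 0.92 to 0.94 and the member median from 0.02 to 0.05 over these settings, and the largest move of a member difference was 0.0237 on the log2 scale. The counts followed the cutoff. At 1.5-fold 1 member, *Aldh1l2*, was higher and 0 were lower, beside 0.697% and 1.27% of all genes. At 1.1-fold 11 were higher and 3 were lower, beside 20.8% and 25.7%. The 4 members below the median level, *Gldc*, *Trib3*, *Slc7a11* and *Slc7a3*, rest on dim probe sets. There the robust SD of the difference over genes was 0.24, against 0.15 at or above that level.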

Other observations

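*Slc7a11* and *Gpt2* had identical values in both arrays, to every digit deposited. The same was true of 687 of the 19938 genes, or 3.45%, and of *Ddit3*, *Stc2* and *Gpt* among the further lists. How the values came to be equal was not tested.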
